A study of Mus musculus with 2 samples.

Results

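Natural killer (NK) cell receptor genes were followed through 2 single-cell RNA-Seq libraries of mouse cholangiocarcinoma (CCA). The 10 genes were *Ncr1*, *Klrk1*, *Klrd1*, *Klrc1*, *Klrc2*, *Klrb1c*, *Klre1*, *Klra8*, *Klrg1* and *H2-T23*, the last of which encodes the ligand of a receptor and not a receptor. They were chosen by symbol, and all 10 were found among the 32589 genes listed. Their unique molecular identifiers (UMIs, which count transcripts rather than reads) were summed in NK-like cells, in cells like type 1 innate lymphoid cells (ILC1-like) and in T-like cells, each class gated by marker genes that include none of the 10. CCA was induced by hydrodynamic tail vein injection of plasmids for the Notch intracellular domain and myristoylated AKT, and shRNAs against *Yap1* and *Taz* (*Wwtr1*) were switched on with doxycycline on day 25. The shYT library labelled PBS came from mice given PBS, and the other shYT library from mice given the anti–PD-1 antibody clone RMP1-14 on days 26, 29 and 32. Both were taken on day 33. The shRNAs were driven by a ubiquitous CAG-rtTA3 allele, so immune cells of both libraries carry them as well as tumor cells, and no library without them was used here. Whole tumor-bearing livers were digested, so the cells are those of tumor and liver together. The labels give no age, sex, batch, number of animals or shRNA line, and there was 1 library per group. The T cell maps of this experiment are described with n = 4 per group, so a library may hold cells of several mice, which cannot be told apart without hashtags. No difference could therefore be set against a spread between animals, no test was made, and the intervals in parentheses (95%) cover counting error only.

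NK cells and their liver-resident relatives, ILC1, kill or signal according to the balance of activating and inhibitory receptors on their surface. *Ncr1* encodes NKp46 and *Klrk1* encodes NKG2D, both activating receptors. The chain CD94 (*Klrd1*) pairs with NKG2A (*Klrc1*), which inhibits, or with NKG2C (*Klrc2*), which activates, and both pairs bind the nonclassical MHC class I molecule Qa-1b, the product of *H2-T23*. Activated CD8 T cells can also carry several of these receptors.

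Of the 10 genes, 8 lie on mouse chromosome 6, which holds the NK gene complex. In the GENCODE vM21 annotation of GRCm38 (the mm10 build named in the submitters' processing notes) they run from *Klrg1* (chr6:122270596-122282882, reverse strand) through *Klrb1c* (chr6:128778485-128789215, reverse), *Klre1* (chr6:129577905-129585827, forward), *Klrd1* (chr6:129591782-129598775, forward), *Klrk1* (chr6:129610323-129623864, reverse), *Klrc2* (chr6:129647496-129660689, reverse) and *Klrc1* (chr6:129666015-129678973, reverse) to *Klra8* (chr6:130115226-130129898, reverse). *Ncr1* lies outside the complex (chr7:4337724-4345164, forward), and *H2-T23* lies in the MHC (chr17:36029773-36032855, reverse). Neighbours can share reads. Of the 541 stretches of 60 bases in the last 600 transcript bases of *Klrc1*, 224 (41.4%) were also found in *Klrc2*, so counts of this pair are uncertain where reads could fall in either gene. The share was 13.86% for *Klra8*, with *Klra9*, *Klra3*, *Klra10* and *Klra11-ps*. It was 16.27% for *H2-T23*, with *Rab33b*, *Hook2*, *Vamp3*, *Pck2* and others, and no other *H2* gene was among them. The share was 0 for the other genes by this measure. *Klrb1c* also overlaps *Gm44511* on the same strand, and *H2-T23* overlaps the antisense gene *A930015D03Rik*. Whether the counting used strand is not given in the sources used here.

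The 250 bases before the start of transcription were read from RefSeq (GRCm38.p6) for 8 of the 10 genes, and 4 of them are printed because the results below turn on these genes. Capitals mark matches to TGTGGT, the core letters bound by RUNX factors, or to the letters of an interferon-stimulated response element (GAAA, any 2 bases, GAAA), on either strand. *H2-T23* (chr17:36032702-36032951, reverse strand) and *Ncr1* (chr7:4337465-4337714, forward) come first, followed by *Klrc1* (chr6:129678974-129679223, reverse) and *Klrc2* (chr6:129660597-129660846, reverse).
H2-T23: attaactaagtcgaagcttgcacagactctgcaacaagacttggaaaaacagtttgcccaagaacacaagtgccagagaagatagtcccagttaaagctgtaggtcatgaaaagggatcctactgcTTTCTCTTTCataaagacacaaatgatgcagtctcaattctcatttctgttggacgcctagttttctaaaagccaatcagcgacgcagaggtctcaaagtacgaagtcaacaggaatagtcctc
Ncr1: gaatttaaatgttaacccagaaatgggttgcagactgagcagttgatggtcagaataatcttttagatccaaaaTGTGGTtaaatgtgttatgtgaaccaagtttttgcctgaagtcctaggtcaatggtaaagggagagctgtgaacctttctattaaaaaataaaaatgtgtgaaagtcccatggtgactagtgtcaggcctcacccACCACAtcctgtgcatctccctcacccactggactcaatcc
Klrc1: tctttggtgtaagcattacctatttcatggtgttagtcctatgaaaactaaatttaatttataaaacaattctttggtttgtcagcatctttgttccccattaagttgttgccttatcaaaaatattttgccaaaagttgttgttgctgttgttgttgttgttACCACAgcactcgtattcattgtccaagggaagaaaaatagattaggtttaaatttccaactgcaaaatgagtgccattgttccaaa
Klrc2: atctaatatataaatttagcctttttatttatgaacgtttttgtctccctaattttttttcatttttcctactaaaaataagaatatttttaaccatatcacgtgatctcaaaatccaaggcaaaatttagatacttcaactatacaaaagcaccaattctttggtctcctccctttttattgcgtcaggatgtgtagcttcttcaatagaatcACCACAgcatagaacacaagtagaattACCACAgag
The interferon element was found before *H2-T23*, on the other strand, and before none of the other 7 genes, against 2.98% of 32851 promoters of the same length. TGTGGT was found before 6 of the 8 genes, with 2 matches each for *Ncr1* and *Klrc2*, and not before *Klra8* or *H2-T23*; 14.05% of all promoters hold it. AGGTGTGA, the T-box motif, is held by 1.12% of all promoters and by none of these 8. The *Klrc1* and *Klrc2* promoters were identical at 45.0% of positions, against 45.4% for *Klrc1* and *Ncr1*. GENCODE starts *H2-T23*, *Klrc2*, *Klrb1c* and *Klre1* further upstream than RefSeq does, and the capitals printed for *H2-T23* and *Klrc2* lie inside the GENCODE gene span given above. A match describes letters in this window and is not evidence of a bound factor.

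The filters (500 to 5000 detected genes, at most 10% mitochondrial UMIs) kept 15531 cells of the PBS library and 16360 of the other, and their median depth was 3159 and 2990 UMIs. The 2 libraries shared 219 cell barcodes, 145 of them kept in both. They also differed in sex-linked transcripts. *Xist*, which is transcribed in female cells, had 51 UMIs in PBS NK-like cells and 1 in anti–PD-1 NK-like cells, and 1002 and 1 in CD8-gated T-like cells. Treatment and this difference cannot be told apart across whole classes, so values from Y-marked cells, those that held a UMI of a Y-linked gene but none of *Xist*, are given beside the results they bear on most. The mark does not settle the sex of a cell. Of 32 PBS NK-like cells with an *Xist* UMI, 29 had no Y-linked UMI and the rest had one, against 11 Y-marked cells. The Y-marked PBS cells may thus include female cells that caught free RNA, which was not tested.

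Cells of the NK lineage expressed cytotoxic and innate genes and had no UMI of the CD3 genes, *Trac*, *Cd4* or the CD8 genes. They were 420 of the PBS cells (2.70%) and 561 of the anti–PD-1 cells (3.43%). Conventional NK markers (*Eomes*, *Itga2*, *S1pr5*, *Cx3cr1*, *Itgam*, *Zeb2*) put 126 and 167 of them in the NK-like class, or 30% and 29.8% of the lineage. ILC1 markers (*Itga1*, *Cxcr6*, *Cd200r1*, *Il7r*, *Tnfsf10*, *Tmem176b*) put 236 and 272 in the ILC1-like class, or 56.2% (51.3 to 61.0) and 48.5% (44.3 to 52.7), and 58 and 122 fitted neither. The genes that led the NK-like class were *Gzma*, *Klra4*, *Klra8*, *Prf1*, *Klra7*, *Klra9*, *Klre1*, *Ncr1*, *Klri2* and *Klrb1c*. The ILC1-like class was led by *Xcl1*, *Ncr1*, *Klrb1b*, *Gzmc*, *Cd7*, *Klrc1*, *Klre1*, *Klrb1c*, *Gzmb* and *Gm36723*, and none of the 6 ILC1 markers was among them. *Gzma*, *Prf1* and *Xcl1* were genes of the NK-lineage gate, so their rank was favored by the selection. UMIs of the T cell receptor constant genes *Trbc1*, *Trbc2* or *Trdc* were found in 60.3% and 67.1% of NK-like cells and in 82.6% and 91.9% of ILC1-like cells, against 6.48% and 16.8% of B-like cells. The counts with such cells left out are given in the closing section. Leaving them out does not show where these UMIs came from. T-like cells with a *Cd8a* or *Cd8b1* UMI (CD8-gated) numbered 954 and 1425, and the other T-like cells 2113 and 1942.

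The members separated NK-like from ILC1-like cells, as gated here, to very different degrees. The numeric limits of the gate were set after the data were seen, with detection of the members in view. The part of that choice in the ratios between these classes, in this and the next paragraph, was not tested. Levels are given as CPM, the UMIs of a gene scaled to the same total of UMIs in every summed class, and are compared between classes and not between genes. *Klra8*, which encodes the activating receptor Ly49H, stood at 1164 CPM in PBS and 991 CPM in anti–PD-1 NK-like cells. In ILC1-like cells it had 0 UMIs in 236 PBS cells. With 3 cells taken as the floor, and not a Clopper-Pearson limit, this allows a share of cells with a UMI of up to 1.27%. That is not a share of cells expressing the gene. In the anti–PD-1 library *Klra8* had 12 UMIs in ILC1-like cells, from 4 of 272 cells. It was thus at least 303-fold higher in NK-like than in ILC1-like cells of the PBS library, taking 3 UMIs as the floor of the ILC1-like sum, and 100-fold higher (56.9 to 195) in the anti–PD-1 library. That interval takes UMIs as independent counts, although the 12 came from 4 cells. *Klrg1*, an inhibitory receptor for cadherins that marks mature NK cells, was at 189 and 232 CPM in NK-like cells against 6.40 and 14.0 CPM in ILC1-like cells. The ratio was 29.6 (11.9 to 94.8) in the PBS library and 16.5 (9.95 to 29.2) in the anti–PD-1 library.

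*Klrc1* went the other way. It was at 708 and 685 CPM in ILC1-like cells against 307 and 352 CPM in NK-like cells, so NKG2A transcripts were 2.30-fold (1.83 to 2.93) and 1.95-fold (1.67 to 2.28) higher in ILC1-like cells. *Klrc2* was higher in NK-like cells, at 357 and 345 CPM against 202 and 206 CPM, a ratio of 1.77 (1.36 to 2.28) and 1.67 (1.38 to 2.03). There were 86.0 *Klrc1* UMIs for every 100 of *Klrc2* in PBS NK-like cells and 102 in anti–PD-1 NK-like cells, but 350 and 333 in ILC1-like cells. The balance of NKG2A to NKG2C transcripts thus differed between the 2 cell classes, while its intervals overlapped between the libraries. *Klre1*, whose product pairs with the KLRI proteins, was 1.61-fold and 1.42-fold higher in NK-like cells, and *Klrd1* 1.28-fold and 1.33-fold. *Klrb1c* was at ratios of 1.47 (1.26 to 1.72) and 1.12 (0.982 to 1.28). For *Ncr1* (1.15 and 0.970) and *Klrk1* (1.06 and 0.905) the intervals of the ratio included 1 in both libraries.

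**Figure D1:**
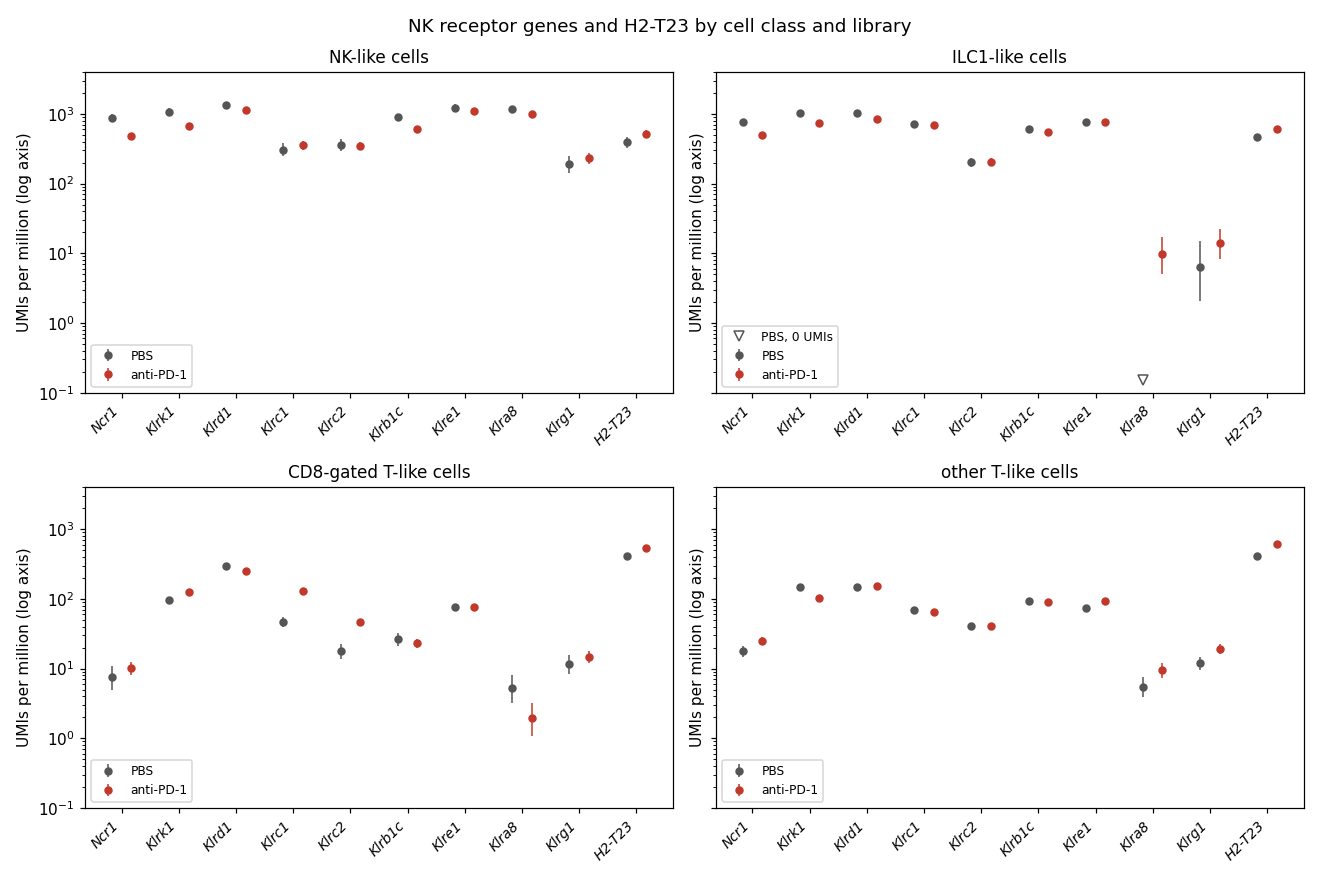
Level of each of the 10 genes in 4 cell classes, as CPM on a log axis, with 1 point per library and exact Poisson 95% intervals; an open triangle stands for 0 UMIs. *Klra8* and *Klrg1* lie at 1164 and 189 CPM in PBS NK-like cells and at 0 and 6.40 CPM in PBS ILC1-like cells, while *H2-T23* is at 389 to 606 CPM in every class and library shown.

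Single cells carried several of these transcripts at once. With every cell drawn down at random to 1000 UMIs (thinned), NK-like cells held a median of 4 of the 9 receptor genes in both libraries, ILC1-like cells 3, and both T-like classes 0. Cells with 3 or more made up 87.0% and 80.1% of NK-like cells and 71.2% and 67.8% of ILC1-like cells. They made up 2.63% and 4.52% of CD8-gated T-like cells and 6.46% and 5.58% of other T-like cells. The share was 0.536% and 0.749% in B-like cells, which should lack them and are given as a background. Free RNA and doublets were not told apart in that background, and 96.6% and 94.8% of B-like cells held none of the 9 genes. The numeric limits of the gate were set with detection of the members in view. High values in the NK-like and ILC1-like classes were thus favored by the selection. *Klra8* was split among NK-like cells: it was found in 50.8% and 50.3% of them (43.1% and 41.6% after thinning). In thinned NK-like cells with a *Klrc1* UMI, *Klra8* was found in 19.0% (PBS) and 25.6% (anti–PD-1), against 48.0% and 46.5% of those without one. The lower shares rest on 21 and 39 cells with a *Klrc1* UMI, and the difference was not tested.

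In NK-like cells, anti–PD-1 was compared with PBS to ask how these receptors differ when checkpoint blockade is added. The activating receptors *Ncr1* and *Klrk1* were lower in the anti–PD-1 library, and the other 8 members differed by less than 1.5-fold. *Ncr1* had 247 UMIs (882 CPM) in PBS and 274 (477 CPM) in anti–PD-1 cells, a ratio of 0.541 (0.454 to 0.645). *Klrk1* had 302 UMIs (1079 CPM) and 384 (669 CPM), a ratio of 0.620 (0.532 to 0.723), which fell short of 1.5-fold with median-of-ratios scaling (log2 ratio −0.49) and with a stricter marker gate (−0.49). Cells with an *Ncr1* UMI went from 73.8% to 65.3% (51.2% to 37.3% after thinning), and those with a *Klrk1* UMI from 81.7% to 69.5% (58.5% to 43.4%). The share of B-like cells with an *Ncr1* UMI was 1.52% and 1.42%, at a median of 1847 and 2540.5 UMIs against 1904 and 2686 in NK-like cells. *Klrb1c*, which encodes the activating receptor NK1.1, was at 889 and 609 CPM, a ratio of 0.685 (0.581 to 0.809) that stopped short of 1.5-fold.

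*Klrd1* was at 1332 and 1118 CPM, *Klre1* at 1225 and 1093 CPM and *Klra8* at 1164 and 991 CPM, ratios of 0.839, 0.893 and 0.851. *Klrd1* and *Klra8* were lower in the anti–PD-1 library by less than 1.5-fold. The intervals for *Klre1* (0.781 to 1.02), *Klrc2* (0.965), *Klrc1* (1.15, 0.885 to 1.49) and *Klrg1* (1.22, 0.883 to 1.72) included 1. *H2-T23* was the one member whose interval lay above 1, at 389 and 517 CPM, a ratio of 1.33 (1.06 to 1.67).

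All 10 genes reached 30 UMIs over both sums. At a fold of 1.5, 0 were higher and 2 lower (*Ncr1*, *Klrk1*), where 12.9% of the 4704 genes tested were higher and 17.3% lower. With this minimum the share of members that were lower was near that of all genes. With a minimum of 100 UMIs all 10 members still passed. Again 0 were higher and the same 2 lower, where 12.5% of 1502 genes were higher and 6.39% lower. With the minimum of 30 UMIs the members' median log2 ratio was −0.20 against −0.09 over all genes tested. Other transcripts moved with these values. The neutrophil marker list (6 genes) summed to 154 CPM in PBS NK-like cells, with 2 genes at 0, and to 1123 CPM in anti–PD-1 ones. The macrophage list (8 genes) summed to 2697 and 1579 CPM and the tumor list to 2047 and 862 CPM. Of 10 stress and immediate early genes, 5 were higher and 0 lower, among them *Junb* (1107 and 3580 CPM). Their part in the result was not tested. In Y-marked NK-like cells (11 and 73 cells), the *Ncr1* log2 ratio was −0.08 (−0.83 to 0.77), on 16 and 148 UMIs, and that of *Klrk1* −0.53 (−1.08 to 0.06), on 31 and 209 UMIs, so the lower *Ncr1* level was not seen in these few cells. *Klrd1* and *Klra8* turned direction in them, with log2 ratios of 0.94 (0.26 to 1.71) on 18 and 337 UMIs and 1.34 (0.48 to 2.36) on 11 and 272 UMIs. The mark does not settle sex, so these ratios cannot separate sex from treatment. Scaling by the median of gene ratios instead of the UMI total moved every log2 ratio up by 0.20 in NK-like cells, by 0.15 in ILC1-like, 0.16 in CD8-gated and 0.19 in other T-like cells. It turned 606 higher and 814 lower genes of the NK-like class into 916 and 482.

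**Figure D2:**
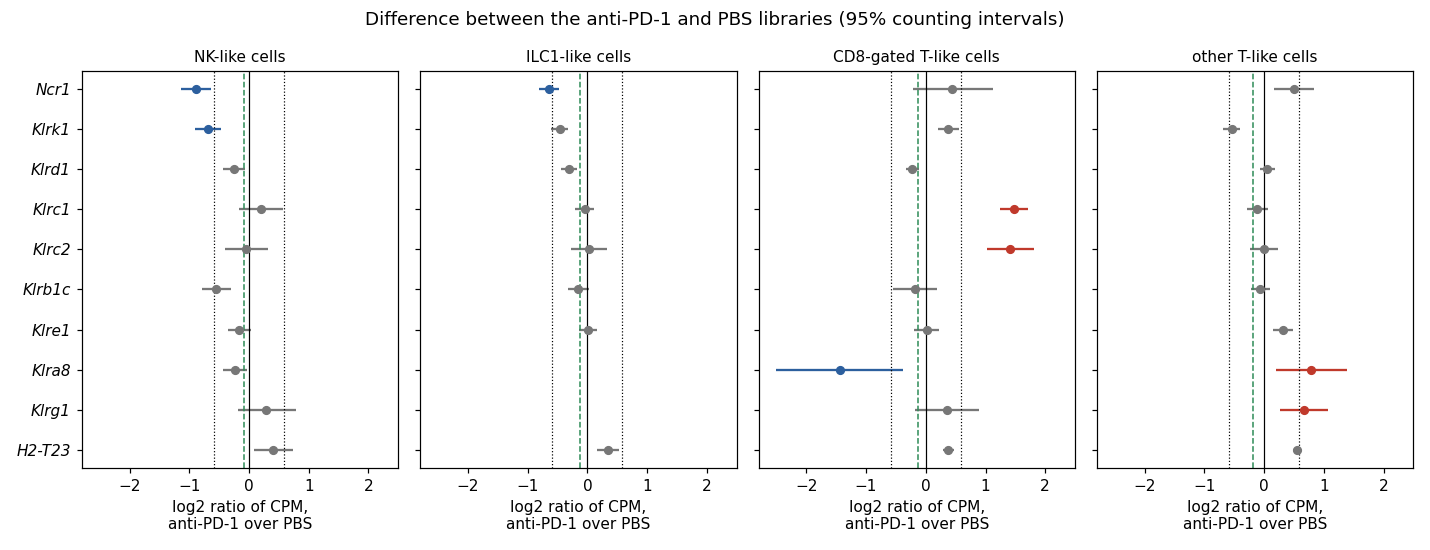
Log2 ratio of CPM, anti–PD-1 over PBS, of each gene with at least 30 UMIs over both sums in 4 cell classes, with exact 95% counting intervals. Dotted lines mark 1.5-fold, the dashed line is the median over all genes tested in the class, and points past 1.5-fold are colored. *Ncr1* lies at −0.89 in NK-like and −0.64 in ILC1-like cells, and *Klrc1* and *Klrc2* lie at 1.47 and 1.41 in CD8-gated T-like cells.

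In ILC1-like cells the 1 member past 1.5-fold was *Ncr1*, lower as in NK-like cells, with 600 UMIs (768 CPM) in PBS and 597 (492 CPM) in anti–PD-1 cells, a ratio of 0.640 (0.571 to 0.718). Cells with an *Ncr1* UMI went from 83.1% to 71.0% (55.1% to 33.3% after thinning). *Klrk1* was at 1020 and 739 CPM, a ratio of 0.724, and *Klrd1* at 1043 and 843 CPM, a ratio of 0.807. The intervals for *Klrc1* (0.968), *Klrc2* (1.02), *Klrb1c* (0.900) and *Klre1* (1.01) included 1. In Y-marked cells (36 and 146 cells), though, *Klrc2* was lower, at a log2 ratio of −0.98 (−1.49 to −0.44) on 41 and 138 UMIs, and *Klrc1* higher, at 0.45 (0.06 to 0.87) on 57 and 517 UMIs. With cells that held a T cell receptor constant gene UMI left out (41 and 22 cells remained), the ratio was 0.394 for *Klrc1*, 0.387 for *Klrb1c*, 0.358 for *Klrd1* and 0.264 for *Klrk1*. *H2-T23* was at 471 and 598 CPM, a ratio of 1.27 (1.12 to 1.44).

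*Klra8* and *Klrg1* did not reach 30 UMIs in ILC1-like cells. Of the other 8 genes, 0 were higher and 1 lower by 1.5-fold, against 9.25% and 16.4% of 7438 genes tested, and their median log2 ratio was −0.10 against −0.12 over all genes. The members' median thus lay close to that of all genes in this class. In Y-marked cells the *Ncr1* log2 ratio was −0.51 (−0.86 to −0.15), with a stricter marker gate −0.51 (−0.71 to −0.32) and with median-of-ratios scaling −0.49 (−0.66 to −0.32), in each case no longer past 1.5-fold. The neutrophil list summed to 154 and 681 CPM here, the macrophage list to 1936 and 1481 CPM and the tumor list to 1457 and 633 CPM, and 4 of 10 stress genes were higher and 0 lower. Their part was not tested. With median-of-ratios scaling, 1000 genes were higher and 778 lower, against 688 and 1219 by CPM.

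Among the 10 genes and the 4 classes, the highest ratios were in CD8-gated T-like cells, and they were those of *Klrc1* and *Klrc2*, both higher in the anti–PD-1 library. This class pools T-like cells with a CD8 UMI whatever their state. The authors describe a large shift of T cell populations with anti–PD-1 in this experiment. The ratios of the class thus also hold any difference in its makeup, whose part was not tested. *Klrc1* had 169 UMIs (46.6 CPM, 39.8 to 54.2) in PBS and 1000 (129 CPM, 121 to 138) in anti–PD-1 cells, a ratio of 2.77 (2.35 to 3.28). *Klrc2* had 64 UMIs (17.6 CPM) and 363 (46.9 CPM), a ratio of 2.66 (2.03 to 3.52). The inhibitory and the activating partner of CD94 were thus higher by a similar factor, with 264 and 275 *Klrc1* UMIs for every 100 of *Klrc2*, and the sharing of sequence between the 2 genes leaves their separate counts uncertain. *Klrd1*, the chain that both need, was not higher, at 296 and 253 CPM, a ratio of 0.856 (0.794 to 0.923), although in Y-marked cells its log2 ratio was 0.19 (−0.17 to 0.58) on 62 and 1326 UMIs.

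The shares of cells went the same way. A *Klrc1* UMI was found in 9.85% of PBS and 22.9% of anti–PD-1 CD8-gated cells, and in 3.26% and 7.92% after thinning to 1000 UMIs. In B-like cells the shares were 1.42% and 3.51%, or 0.322% and 1.12% after thinning. *Klrc2* was found in 4.51% and 13.3% (1.68% and 3.60% after thinning), against 0.912% and 1.54% of B-like cells (0.214% and 0.375%). The median depth of CD8-gated cells was 3093.5 and 4269 UMIs. *Klrd1* was found in 43.7% and 46.9%, and in 20.6% of both libraries after thinning. Among thinned cells with a *Klrd1* UMI, 6.12% in PBS and 14.4% in anti–PD-1 also had a *Klrc1* UMI, against 2.51% and 6.23% of those without one. The higher *Klrc1* share was thus seen in cells with and without a *Klrd1* UMI. *Klrc1* and *Klrc2* UMIs met in the same cell in 15 of 954 PBS cells (1.57%) and 126 of 1425 anti–PD-1 cells (8.84%). *Klrc2* was found in 16.0% and 38.5% of cells with a *Klrc1* UMI against 3.26% and 5.83% of those without one. After thinning they met in 3 of 952 and 4 of 1415 cells, and *Klrc2* was found in 9.68% and 3.57% of cells with a *Klrc1* UMI against 1.41% and 3.61% of those without one. These thinned counts are too few to show a difference in either direction.

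Among the other members, *Klrk1* was at 95.7 and 124 CPM in CD8-gated cells, a ratio of 1.30 (1.15 to 1.47). This lay on the other side of 1 from NK-like and ILC1-like cells, a difference that was not tested. With cells thinned to 1000 UMIs the *Klrk1* ratio in CD8-gated cells was 1.73, past 1.5-fold. *H2-T23* was at 416 and 541 CPM, a ratio of 1.30 (1.23 to 1.38). The intervals for *Ncr1* (7.45 and 10.1 CPM), *Klrb1c* (26.2 and 23.1 CPM), *Klre1* (75.8 and 76.8 CPM) and *Klrg1* (11.6 and 14.7 CPM) included 1. *Klra8* was lower, at 5.24 and 1.94 CPM, a ratio of 0.370 (0.175 to 0.768) on 19 and 15 UMIs. That interval takes UMIs as independent counts, although they came from few cells. *Klra8* was found in 0.629% and 0.632% of these CD8-gated cells, against 0.101% and 0.617% of B-like cells, so the shares of the anti–PD-1 library were close in the 2 classes. Without the upper limit on detected genes its log2 ratio was −0.35 (−1.20 to 0.54) on 19 and 34 UMIs. With 5 CPM added it was −0.56, also short of 1.5-fold, and in 4 other alternatives it did not reach the minimum of UMIs. At 1.5-fold, 2 of 10 members were higher, where 7.24% of 11145 genes tested were, and 1 was lower, where 16.9% were. The median log2 ratio was 0.36 against −0.14 over all genes.

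The *Klrc1* ratio lay between 2.53 and 4.76 and the *Klrc2* ratio between 1.98 and 3.53 over 11 alternative settings. The highest values of both came from Y-marked cells (78 and 835 cells), where *Klrc1* had a log2 ratio of 2.25 on 8 and 712 UMIs. Stress genes were again higher, with 5 of 10 past 1.5-fold and 0 lower, the neutrophil list summed to 120 and 877 CPM, the dendritic list to 120 and 344 CPM, the macrophage list to 1670 and 1018 CPM and the tumor list to 1395 and 608 CPM. Their part was not tested. By median-of-ratios scaling, 1209 genes were higher and 1282 lower, against 807 and 1881 by CPM.

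The other T-like cells did not share the higher *Klrc1* and *Klrc2* levels. *Klrc1* was at 69.5 CPM in PBS and 64.2 CPM in anti–PD-1 cells, and *Klrc2* at 40.4 and 40.3 CPM, ratios of 0.925 (0.815 to 1.05) and 0.998 (0.847 to 1.18). These intervals do not overlap those of the CD8-gated class, though the difference between the classes was not tested. *Klrk1* was lower, at 150 and 103 CPM, a ratio of 0.684 (0.623 to 0.751), just short of 1.5-fold. In Y-marked cells its log2 ratio was −1.09 (−1.37 to −0.81). *Klrd1* (147 and 152 CPM) and *Klrb1c* (94.1 and 89.9 CPM) had intervals that included 1. *Ncr1* (17.6 and 24.9 CPM) and *Klre1* (74.2 and 92.6 CPM) were higher by less than 1.5-fold. *Ncr1* was at a ratio of 0.960 with a stricter marker gate and 2.02 in Y-marked cells, where *Klre1* turned to 0.859.

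*Klrg1* was at 11.95 and 18.91 CPM, a ratio of 1.58 (1.20 to 2.09) that was short of 1.5-fold with a stricter marker gate (log2 ratio 0.54) and with 5 CPM added (0.50), and *Klra8* at 5.48 and 9.45 CPM, a ratio of 1.72 (1.15 to 2.61) on 39 and 73 UMIs. The *Klra8* interval takes UMIs as independent counts, although they came from few cells. A *Klra8* UMI was found in 0.473% and 0.978% of the other T-like cells, against 0.101% and 0.617% of B-like cells. The part of free RNA in the *Klra8* level was not tested. In Y-marked cells the *Klra8* log2 ratio was −1.01. *H2-T23* was at 415 and 606 CPM, a ratio of 1.46 (1.40 to 1.53). At 1.5-fold, 2 of 10 members were higher, where 6.64% of 11996 genes tested were, and 0 were lower, where 17.9% were, with a median log2 ratio of 0.19 against −0.19 over all genes. By median-of-ratios scaling 1188 genes were higher and 1322 lower, against 796 and 2142 by CPM. Of 10 stress genes, 5 were higher and 0 lower, and the neutrophil list summed to 149 and 970 CPM, the dendritic list to 86.3 and 305 CPM, the macrophage list to 2127 and 1270 CPM and the tumor list to 1524 and 737 CPM. The list of NK lineage markers summed to 4604 and 6769 CPM. Their part was not tested.

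Within the other T-like cells, the levels of several receptors were higher in those with a UMI of *Trdc*, the constant gene of γδ T cells (89 and 97 cells). There *Klrd1* was at 482 and 504 CPM, *Klrk1* at 418 and 327 CPM, *Klrc1* at 252 and 316 CPM and *Ncr1* at 137 and 74.6 CPM. These levels lay above those of the whole class for every one of the 4 genes, but most UMIs of the class came from other cells: cells with a *Trdc* UMI held 151 of 1044 *Klrd1* UMIs in PBS and 196 of 1175 in anti–PD-1 cells. A *Trdc* UMI was also found in 7.94% and 12.6% of NK-like cells, against 0.304% and 0.185% of B-like cells. It thus does not mark γδ T cells alone. T-like cells with *Cd4* and no *Foxp3* UMI (630 and 732 cells) had 45.1 and 34.6 CPM of *Klrk1*. *Klrg1* stood highest in T-like cells with a UMI of *Foxp3*, the regulatory T cell factor (225 and 220 cells), at 51.9 and 71.9 CPM.

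*H2-T23* was the member found across the cell classes of tumor and liver. Its ratio was above 1 in 14 of 15 cell classes, with an interval above 1 in 13, and was past 1.5-fold in 6. The exception was the mast/basophil-like class (629 and 617 CPM), with 0.982 (0.674 to 1.44). In tumor/biliary-like cells *H2-T23* had 845 UMIs (123 CPM) in PBS and 1772 (475 CPM) in anti–PD-1 cells, a ratio of 3.87 (3.56 to 4.20), the highest of the 15 classes. Macrophage-like cells were at 321 and 787 CPM (2.46-fold), endothelial-like cells at 599 and 1435 CPM (2.40-fold), neutrophil-like cells at 300 and 680 CPM (2.26-fold) and fibroblast-like cells at 219 and 367 CPM (1.68-fold). B-like cells were at 419 and 625 CPM (1.49-fold) and dendritic-like cells at 569 and 845 CPM (1.49-fold). The transcript of the Qa-1b ligand was thus higher by a larger factor in tumor, macrophage-like and endothelial-like cells than in the cells that carry CD94, though that order was not tested. Stress genes had median log2 ratios of 2.20 in fibroblast-like, 1.22 in endothelial-like and 0.34 in neutrophil-like cells. The medians over all genes were −0.03, −0.09 and −0.57 there. The median of the 7 members with enough UMIs in fibroblast-like cells was 0.90. Their part was not tested.

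The *H2-T23* ratio was larger than that of *B2m*, the shared light chain of MHC class I, in 15 of 15 classes, than that of the classical gene *H2-K1* in 13 and than that of *H2-D1* in 11. In tumor/biliary-like cells *B2m* went from 2400 to 4699 CPM (1.96-fold), *H2-K1* from 1751 to 3444 CPM (1.97-fold) and *H2-D1* from 1264 to 3139 CPM (2.48-fold). *H2-T22*, another nonclassical gene, went from 46.4 to 113 CPM (2.43-fold). Class I transcripts were higher together in these cells. Lymphocyte genes that tumor cells should lack were higher there as well. All 9 members with enough UMIs were higher by 1.5-fold and 0 lower, where 13.5% of 12633 genes tested were higher and 13.4% lower, with a median log2 ratio of 1.65 against −0.06 over all genes. Among them *Klrd1* was at 10.6 and 36.7 CPM and *Klrc1* at 4.799 and 22.53 CPM. The same held for 11 of 13 other NK receptor genes, 12 of 12 adaptor genes (*Tyrobp*, 160 and 435 CPM) and 9 of 10 stress genes, and their part in the *H2-T23* level was not tested. In Y-marked NK-like cells the *H2-T23* log2 ratio was −0.05, whereas it stayed above 0 in all 11 alternatives in each of the other 3 classes.

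**Figure D3:**
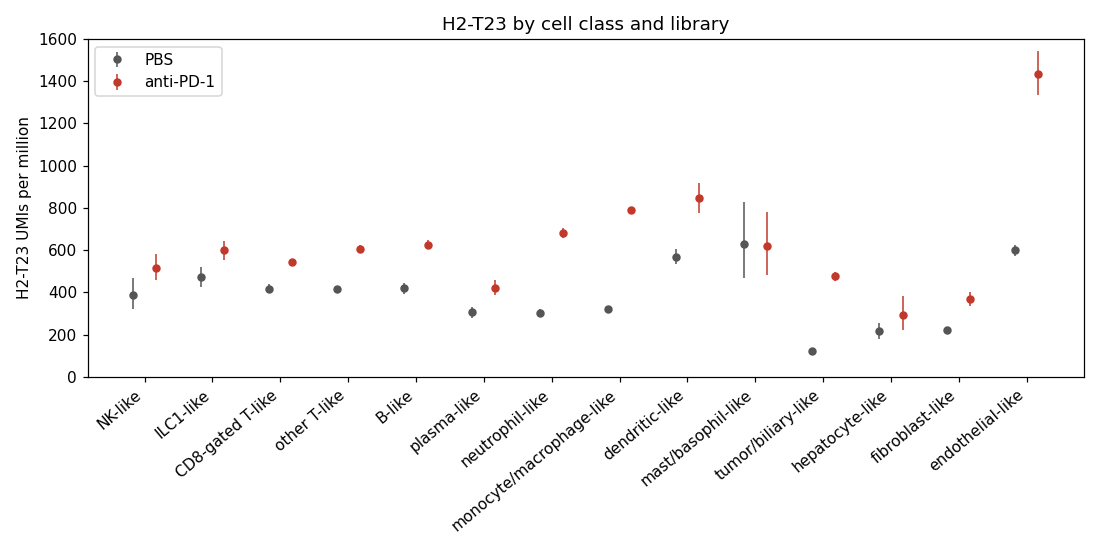
Level of *H2-T23* in CPM, on a linear axis from 0, in 14 cell classes of both libraries with exact Poisson 95% intervals. The tumor/biliary-like class is at 123 and 475 CPM and the endothelial-like class at 599 and 1435 CPM, while the NK-like, ILC1-like and both T-like classes lie between 389 and 606 CPM.

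Outside lymphoid cells, *Klrk1* was counted in macrophage-like cells and *Klrd1* in dendritic-like cells. *Klrk1* had 367 UMIs (11.8 CPM) in PBS and 1292 (45.2 CPM) in anti–PD-1 monocyte/macrophage-like cells, a ratio of 3.84 (3.42 to 4.32). It was found in 7.37% and 24.5% of them, or 1.20% and 5.02% after thinning, against 1.07% and 1.56% of thinned B-like cells. The thinned shares of the PBS library were thus close in macrophage-like and B-like cells. There were 235 (195 to 286) and 426 (376 to 485) *Klrk1* UMIs for every 100 of *Klrd1* in macrophage-like cells, against 93.7 and 75.4 over the NK lineage 108 and 100 in B-like cells, 32.4 and 49.1 in CD8-gated and 102 and 67.4 in other T-like cells. The part of free RNA in these levels was not tested. *Klrk1* was higher in macrophage-like cells with the Kupffer cell gene *Clec4f* (20.7 and 48.7 CPM), in those with *Ccr2* and no *Clec4f* UMI (10.02 and 43.60 CPM) and in those with neither (4.86 and 27.5 CPM). The ratios were 2.35 (2.03 to 2.74), 4.35 (3.30 to 5.75) and 5.67 (4.06 to 7.99). Cells with a *Clec4f* UMI, where the level was highest, made up 1062 of 3448 PBS and 2301 of 3388 anti–PD-1 cells of the class, so the ratio of the whole class also holds this difference in makeup. Other lymphocyte and stress genes moved with these values: 8 of 16 other NK receptor genes and 8 of 10 stress genes were higher by 1.5-fold, with 0 lower in both lists. Of 13 adaptor and signaling genes, 4 were higher, namely *Cd247* (2.62), *Zap70* (2.14), *Sh2d1a* (2.35) and *Sh2d2a* (3.35), and 2 lower, *Sh2d1b1* (0.372) and *Inpp5d* (0.665), with a median log2 ratio of 0.02. Their part was not tested. Of the 9 members with enough UMIs in this class, 8 were higher by 1.5-fold and 0 lower, where 12.1% of 13968 genes tested were higher and 14.3% lower, with a median log2 ratio of 1.13 against −0.12 over all genes.

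*Klrd1* was also found in dendritic-like cells, where it was lower with anti–PD-1. It had 417 UMIs (254 CPM) in 237 PBS cells and 65 (100 CPM) in 72 anti–PD-1 cells, a ratio of 0.395 (0.300 to 0.514), and was found in 54.4% and 37.5% of them (24.9% and 11.1% after thinning). There were 2453 and 1083 *Klrd1* UMIs for every 100 of *Klre1*, against 126 and 110 over the NK lineage, 390 and 330 in CD8-gated and 198 and 164 in other T-like cells. The part of free RNA was not tested here either. Of the 3 members with enough UMIs, 0 were higher by 1.5-fold and 1 (*Klrd1*) lower, where 10.7% of 7777 genes tested were higher and 22.8% lower. Of 7 other NK receptor genes 1 was higher and 4 were lower, with a median log2 ratio of −0.72 against −0.14 over all genes, and of 10 stress genes 5 were higher and 2 lower. Their part was not tested. *Klrd1* was lower in cells with an *Xcr1* or *Clec9a* UMI (143 and 60.6 CPM) and in those without (365 and 146 CPM). *Klrk1* was at 94.97 and 109.6 CPM in dendritic-like cells.

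**Figure D4:**
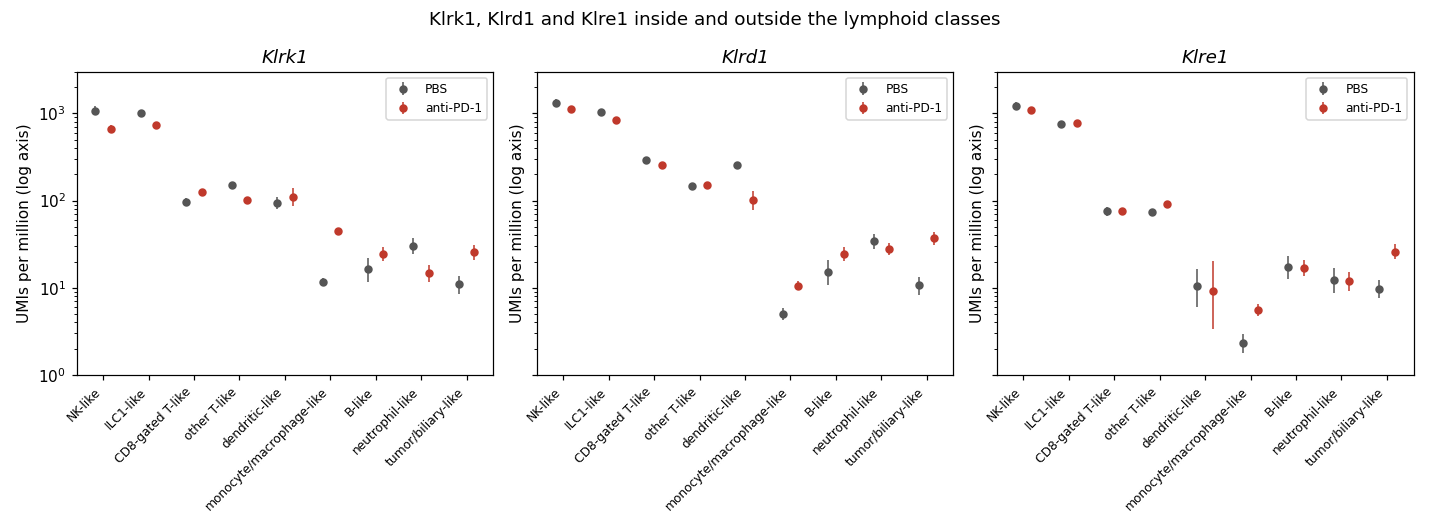
Levels of *Klrk1*, *Klrd1* and *Klre1* in 9 cell classes, as CPM on a log axis with exact Poisson 95% intervals. In monocyte/macrophage-like cells *Klrk1* is at 11.8 and 45.2 CPM. In dendritic-like cells *Klrd1* is at 254 and 100 CPM, *Klrk1* at 94.97 and 109.6 CPM and *Klre1* at 10.3 and 9.26 CPM.

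Other receptors of the same families were counted from a list of 20 genes. Counts of this and the next 2 lists stand against the shares of all genes past 1.5-fold, which were 12.9% higher and 17.3% lower in NK-like, 9.25% and 16.4% in ILC1-like, 7.24% and 16.9% in CD8-gated and 6.64% and 17.9% in other T-like cells. In NK-like cells 16 reached 30 UMIs, of which 0 were higher and 2 lower, *Klra1* (207 and 118 CPM) and *Klrb1f* (293 and 150 CPM). The Ly49 genes *Klra4*, *Klra7* and *Klra9*, inhibitory or activating receptors for MHC class I, were at ratios of 0.958, 0.861 and 0.823 there, *Klri2* at 1.09, *Klrb1b* at 1.32 and *Klrb1a* at 0.784. None of these 6 passed 1.5-fold. In ILC1-like cells 17 reached the minimum, with 1 higher (*Klra3*) and 5 lower (*Klra5*, *Klra9*, *Klrb1a*, *Klrc3*, *Fcgr3*). CD8-gated cells had 3 higher and 4 lower of 17. *Crtam*, which binds a nectin-like molecule, was at 18.8 and 57.3 CPM, a ratio of 3.05, *Klri2* at 1.99 and *Cd160* at 1.51. The lower ones were *Klra1*, *Klra7*, *Klra9* and *Cd244a*. In other T-like cells 3 of 19 were higher (*Klri2*, *Klri1*, *Slamf7*) and 0 lower.

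Of 13 adaptor and signaling genes, all 13 reached the minimum in NK-like cells, with 1 higher and 4 lower. *Tyrobp* (DAP12), *Hcst* (DAP10) and *Cd247* (CD3ζ), which carry the signals of activating receptors, were at ratios of 0.998, 0.947 and 0.993, with intervals that included 1. *Fcer1g*, an adaptor of NKp46, was at 2668 and 2009 CPM, a ratio of 0.753; it and *Tyrobp* were gate genes. *Sh2d2a*, a T cell adaptor, was higher, at 207 and 397 CPM (1.92-fold), and was also higher in ILC1-like cells (1.76-fold). The phosphatase gene *Ptpn6* was at 0.820. The lower genes were *Vav1* (0.521), *Sh2d1a* (0.574), *Sh2d1b1* (0.436) and *Inpp5d* (0.631). In ILC1-like cells 1 of 12 was higher and 0 lower, in CD8-gated cells 0 of 13 higher and 1 lower, and in other T-like cells 1 higher and 1 lower.

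Of 17 ligand genes, 14 were listed in the files. Among the ligands of NKG2D, *H60b* and *H60c* had 4 and 1 UMIs over both libraries in the class with their highest pooled level, too few at this depth to compare. *Raet1d* had 51 and 50 UMIs in monocyte/macrophage-like cells, a log2 ratio of 0.10 (−0.50 to 0.69). *Raet1e* had 336 and 276 UMIs in monocyte/macrophage-like cells (10.8 and 9.66 CPM), a log2 ratio of −0.16 (−0.39 to 0.08), and *Ulbp1* had 260 and 276 UMIs there (8.34 and 9.66 CPM), a log2 ratio of 0.21 (−0.04 to 0.46). All 3 intervals included 0. In the T-like classes *Raet1e* was higher, at log2 ratios of 0.58 (0.13 to 1.04) in CD8-gated cells on 56 and 178 UMIs and 0.51 (0.18 to 0.84) in other T-like cells on 125 and 193 UMIs. *Ulbp1* was lower there, at −0.47 (−0.87 to −0.06) on 87 and 134 UMIs and −0.52 (−0.91 to −0.14) on 135 and 102 UMIs, and in neutrophil-like cells, on 22 and 18 UMIs, at −1.15 (−2.13 to −0.18). None of the T-like ratios was past 1.5-fold. *Cdh1*, a cadherin bound by KLRG1, was in tumor/biliary-like cells at 296 and 326 CPM, a ratio of 1.10. *Cdh2*, another cadherin gene of the list, was lower there, at 10.9 and 0.805 CPM on 75 and 3 UMIs. In fibroblast-like cells *Cdh2* was at 92.6 and 34.2 CPM, a ratio of 0.370. *Clec2d*, a ligand of NKR-P1 receptors, was in endothelial-like cells at 246 and 493 CPM, a ratio of 2.01. *H2-D1* was at 3226 and 6155 CPM in neutrophil-like cells and at 4054 and 5111 CPM in ILC1-like cells, and *B2m* at 6752 and 6786 CPM in ILC1-like and 4067 and 7869 CPM in endothelial-like cells, so the class with the higher level was not the same in both libraries. In NK-like cells 1 of 6 ligand genes was higher (*H2-T22*, 1.66-fold) and 0 lower. Each of the other 3 classes had 1 higher (*Raet1e* or *H2-T24*) and 1 lower (*Cdh1*), of 8, 10 and 10 genes.

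Patterns over 30 sums (15 classes in each library, 13479 genes with at least 200 UMIs) were compared by Pearson correlation of log2(CPM + 5), as a description, since the sums share libraries and depth. *Ncr1* was most like *Klrb1a* (r = 0.988), *Styk1* (0.974) and *Klrb1c* (0.973). *Klrg1* was most like the Ly49 genes *Klra1* (0.949), *Klra7* (0.945) and *Klra9* (0.936). *H2-T23* was most like *Cd274*, the gene of PD-L1 (0.830), *Herc6* (0.761) and *Tapbp* (0.759), a looser likeness than that of the other 2 genes.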

How the data were processed

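Transcripts of single cells were counted in 2 libraries (Singleron GEXSCOPE V2 kit), grouped by their labels. The authors deposited unnormalized UMI counts for each gene and barcode, made against mm10 per the labels, which also name Seurat 4.3. The software version, the annotation and the handling of strand and shared reads are not given in the sources used here, and such handling could move counts between *Klrc1* and *Klrc2*. Library totals were 121713441 UMIs over 19397 barcodes (PBS) and 100807037 over 19451 (anti–PD-1), with at least 536 and 579 UMIs per barcode.

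Cells were kept with between 500 and 5000 detected genes and a mitochondrial share of at most 10%. A gate, not clustering, set the classes. Cells of 10 other types had UMIs of at least 3 of the markers of that type, and a share of UMIs on them above the 97.5th percentile of clear T cells of the same library, which stands for free RNA. Cells above it with 2 such markers were kept out of the T-like and NK-lineage classes. T-like cells had at least 2 of 4 genes (*Cd3d*, *Cd3e*, *Cd3g*, *Trac*). NK-lineage cells had none of these, no *Cd4* or CD8 UMI, at least 5 of 10 NK-lineage genes, and both *Tyrobp* and *Fcer1g*. NK-like cells had at least 1 of 6 conventional NK genes and more of these than of 6 ILC1 genes, and ILC1-like cells at least 2 ILC1 genes and more of these. The members and lists were chosen with earlier results of these data known, and the numeric limits of the gate were set after the data were seen, with detection of the members in view.

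CPM were computed from the UMIs of each class summed within a library, with exact Poisson intervals, shares with Clopper-Pearson intervals, and ratios with exact conditional binomial intervals (Python 3.11.15, numpy 2.4.6, scipy 1.17.1, pandas 2.3.3), all at 95% and for counting error only. A gene counted as higher or lower past 1.5-fold with at least 30 UMIs over both sums. A share of cells was also given after thinning each cell to 1000 UMIs (seed 7), which left out 1075 PBS and 1347 anti–PD-1 kept cells. Doublets were scored by Scrublet in scanpy 1.11.5. Its automatic threshold marked 0 cells, so the 6% of kept cells with the highest scores (932 and 982) were left out as an alternative and kept otherwise. The 10 members were all named. Of each list every gene was counted and the 6 with the most UMIs in the NK-like class were named (for ligands, in the class with the highest level). Other genes of a list were named where a count was 5 or fewer, after their values were seen, as were the finer T-like, macrophage-like and dendritic-like groups. The script was tested on simulated counts.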

Additional observations from a re-analysis of the deposited data

Results flagged for a closer look

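*Klra8*, the gene of Ly49H, passed 1.5-fold in opposite directions in the T-like classes. Its ratio of CPM, anti–PD-1 over PBS, was 1.72 (1.15 to 2.61) in other T-like cells, on 39 and 73 UMIs in 10 and 19 cells, and 0.370 (0.175 to 0.768) in CD8-gated T-like cells, on 19 and 15 UMIs in 6 and 9 cells. Both intervals take UMIs as independent counts, although they came from these few cells, so they are too narrow. The difference between the classes was not tested, and with 1 library per group no spread between animals is known. B-like cells, which should lack the gene, had a *Klra8* UMI in 0.101% and 0.617% of cells, against 0.629% and 0.632% of CD8-gated and 0.473% and 0.978% of other T-like cells.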

How the results depend on the processing

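No paired analysis was possible because each group has 1 library, and no result comes from a test. Each alternative was set against the counts of members past 1.5-fold (in NK-like cells 0 higher and 2 lower, in ILC1-like 0 and 1, in CD8-gated T-like 2 and 1, in other T-like 2 and 0). Of 88 such counts, 66 stayed within 1.5 times the first value and 22 moved. The 1 lower member of CD8-gated cells, *Klra8*, became 0 without the upper limit on detected genes, with a stricter gate, with a minimum of 100 UMIs, with 5 CPM added before the ratio and with cells thinned to 1000 UMIs. Of all genes tested, 16.9%, 15.7%, 10.1%, 7.89% and 13.5% were lower in these settings, in that order. The stricter gate also gave 1 lower in NK-like cells (*Klrk1* lost), 0 lower in ILC1-like cells (*Ncr1* lost), and 1 higher (*Klrg1* lost) and 1 lower (*Klrk1*) in other T-like cells. Of all genes tested with this gate, 16.4% were lower in NK-like, 16.3% in ILC1-like and 16.9% in other T-like cells, where 6.32% were higher. Leaving out cells with a T cell receptor constant gene UMI kept 50 and 55 NK-like and 41 and 22 ILC1-like cells, and gave 5 lower members in ILC1-like cells (*Ncr1*, *Klrk1*, *Klrd1*, *Klrc1*, *Klrb1c*), where 17.4% of 1731 genes tested were lower. Median-of-ratios scaling gave 1 higher (*H2-T23*) and 1 lower in NK-like cells (*Klrk1* lost), 0 lower in ILC1-like cells (*Ncr1* lost) and 4 higher in other T-like cells, as follows from the shift it adds to every ratio. By this scaling 19.5% of genes were higher and 10.2% lower in NK-like cells, 10.5% were lower in ILC1-like cells and 9.90% higher in other T-like cells. With 5 CPM added, 0 were higher in other T-like cells (*Klra8* and *Klrg1* lost), and with thinned cells 1 was higher (*Klra8* lost) and 1 lower (*Klrk1*) there. Of all genes in that class, 4.38% were higher with 5 CPM added, and 7.22% were higher and 15.4% lower with thinned cells. In CD8-gated cells thinning gave 3 higher (*Klrk1* added), where 8.32% of genes were higher. In Y-marked cells (a UMI of a Y-linked gene, none of *Xist*), 3 were higher (*Klrd1*, *Klra8*, *Klrg1*) and 0 lower in NK-like cells (11 and 73 cells), 1 was higher (*H2-T23*) and 1 lower (*Klrc2*, in place of *Ncr1*) in ILC1-like cells, 4 were higher (*Ncr1*, *Klrc1*, *Klrc2*, *Klrg1*) and 1 lower (*Klre1*, with *Klra8* below the minimum) in CD8-gated cells and 2 were higher (*Ncr1*, *Klrg1*) and 2 lower (*Klrk1*, *Klra8*) in other T-like cells, and *Klra8* in other T-like cells reversed to a log2 ratio of −1.01 on 19 and 59 UMIs. Of all genes tested in these cells, 31.3% were higher and 18.8% lower in NK-like, 20.6% and 21.2% in ILC1-like, 19.7% and 22.7% in CD8-gated and 10.8% and 18.5% in other T-like cells. The cause was not tested.

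*Klrc1* and *Klrc2* in CD8-gated cells stayed past 1.5-fold in all 11 alternatives. *Ncr1* stayed below 1 in all 11 in NK-like cells (0.463 to 0.947) and in ILC1-like cells (0.334 to 0.712), and *Klrk1* in NK-like cells (0.490 to 0.711). Over the members' log2 ratios, 350 values stayed inside the first interval, 60 moved out of it and 1 reversed. Shares of cells with a UMI stayed in 511 and moved in 129 values, and class shares stayed in 39 and moved in 25. Leaving out the barcodes found in both libraries was chosen after seeing the data, as were the highest doublet scores in place of a threshold. Depth limits *Klra8* outside NK-like cells, *Klrg1* in ILC1-like cells and the ligand genes *H60b* and *H60c*.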
